A study of Homo sapiens with 15 samples.

Results

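The 10 genes described here are antiviral genes switched on by interferon, followed across 5 ovarian cancer cell lines: IFIT1, IFIT2, IFIT3, IFI6, IFI27, IFI44, IFI44L, ISG15, OAS1 and MX1. They were picked by symbol, and each matched 1 row, so the set is 10 of the 16604 genes measured. RNA was measured in 15 samples, 3 biological replicates of each of 5 lines, grown in DMEM with serum and antibiotics. Libraries were made by polyA capture from column-purified total RNA. Ovcar4Parental is OVCAR4, a line of high-grade serous ovarian cancer, sensitive to both platinum drugs. Ov4Cis was selected in rising cisplatin and Ov4Carbo in rising carboplatin, drugs that crosslink DNA. Ov4Carbo4 and Ov4Carbo7 were each grown from 1 single cell of Ov4Carbo and are labelled carboplatin resistant. Each resistant line is 1 culture or 1 clone, so a difference between lines is a difference between those cultures. The labels name no drug, virus or interferon given at harvest.

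Interferons are secreted proteins that bind receptors coupled to the kinases JAK1 and TYK2. These activate a complex of transcription factors, STAT2 and IRF9 among them, which binds a short DNA element, the interferon-stimulated response element, in front of antiviral genes. Cells make type I interferon after sensing viral or misplaced RNA or DNA, and tumour cells can also hold such genes at a raised level without infection.

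The response element could be found in the promoters of most of these genes. RefSeq promoter sequences (GRCh38.p14, 250 bases before to 50 after a transcription start) were matched for 9 of the 10 genes, IFIT2 being the gene not matched. The core, GAAA then any 2 bases then GAAA, was searched on both strands and was in a promoter of 8 of these 9 genes. Of all 35116 promoters of that length, 3.57% held it, and of all 27305 genes, 4.38%. The windows below are shown because they hold these letters just upstream of the genes whose RNA is described next. Capitals mark the matches wholly inside a window, which begin and end with TTTC where the element lies on the other strand.
IFIT1: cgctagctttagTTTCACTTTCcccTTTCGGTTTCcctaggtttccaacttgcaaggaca
IFIT3: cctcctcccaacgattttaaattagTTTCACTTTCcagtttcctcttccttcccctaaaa
IFI6: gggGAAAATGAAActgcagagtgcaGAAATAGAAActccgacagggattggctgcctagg
IFI27: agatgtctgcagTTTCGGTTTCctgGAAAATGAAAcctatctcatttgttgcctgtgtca
IFI44: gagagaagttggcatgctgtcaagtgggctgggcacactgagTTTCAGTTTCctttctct
IFI44L: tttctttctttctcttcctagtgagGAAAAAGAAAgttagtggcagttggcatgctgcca
ISG15: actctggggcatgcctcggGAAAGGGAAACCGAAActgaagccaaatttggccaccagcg

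All 7 windows are 60 bases long and are read in the direction of the gene. The IFIT1 window is chr10:89392495-89392554 (plus strand) and that of IFIT3 is chr10:89327850-89327909 (plus strand). IFI6 was read at chr1:27672251-27672310 (minus strand) and IFI27 at chr14:94110616-94110675 (plus strand). The IFI44 and IFI44L windows are chr1:78649729-78649788 and chr1:78620350-78620409, both on the plus strand, and the ISG15 window is chr1:1013365-1013424 (plus strand). With the first transcribed base as 1 and the base before it as -1, IFIT1 held the core at -116 to -107 and at -103 to -94. IFI44 held it at -18 to -9, nearest to a start among the upstream matches of the first-listed promoters. In ISG15 a match at -113 to -104 overlapped another at -107 to -98, so the capitals form a single run. MX1 held the core at 12 to 21 after the first of its 3 listed starts and at -196 to -187 before the third. A second pattern, TTCNNNGAA, the palindrome that STAT dimers can bind, was in a promoter of IFI27, OAS1 and MX1, that is in 3 of the 9 genes, against 9.38% of all genes and 7.66% of all promoters of that length. In IFI27 it spanned -101 to -93 and overlapped both core matches. OAS1 held it at -168 to -160 and held no core match in its window. These matches describe letters, and no binding was measured.

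**Figure D1:**
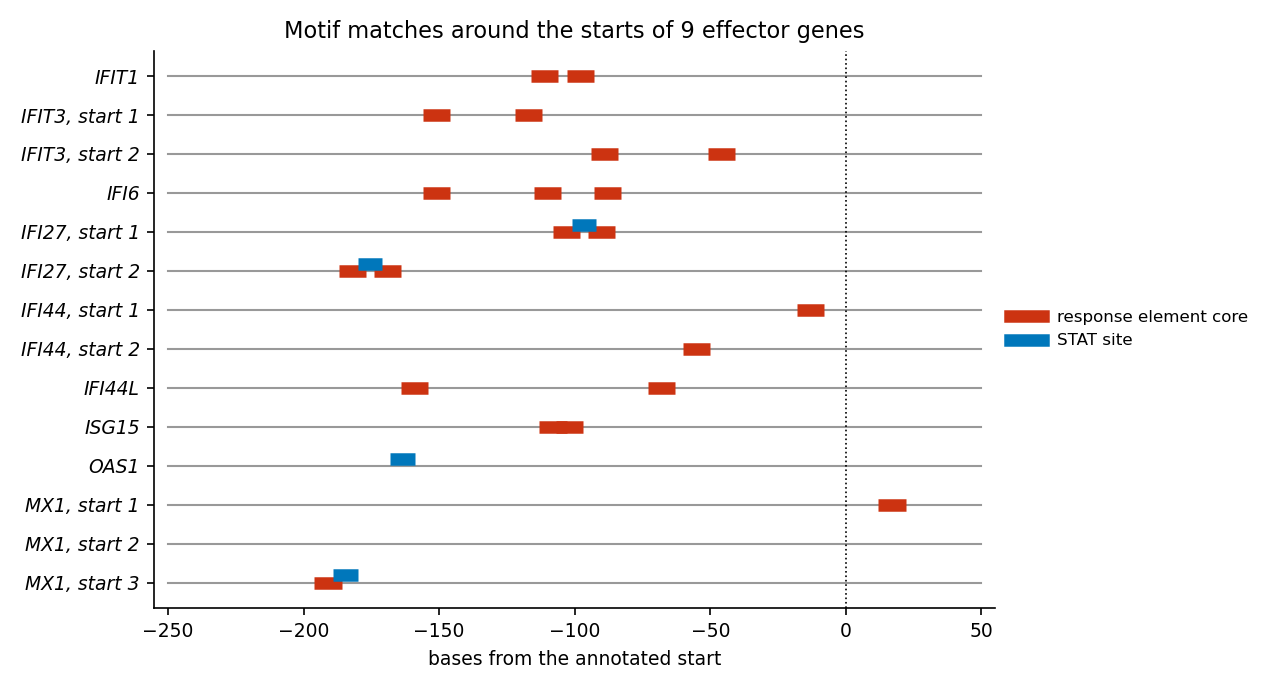
Positions of the response element core and of the STAT pattern in the promoters of the 9 matched genes, in bases from the transcription start (horizontal axis), with 1 row per listed start. Core matches lie upstream of a start in all 8 genes that hold one, and OAS1 carries the STAT pattern alone.

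The deposited values are log2 RPKM, reads scaled to transcript length and library size, normalised by the authors for gene length and GC content. How well levels compare between genes was not tested. All 16604 genes had a value in each sample, the sample medians all lay at 2.77 and 0 pairs of samples were identical. Sequencing depth per sample is unknown. The origin of the lines was checked on 9 serous ovarian markers. PAX8, the lineage factor, lay between 5.66 and 6.87 in all samples. WT1 lay between -6.37 and -0.98 and was called higher in Ov4Cis than in the parental line (3.56). Of the 9 markers, 7 were called lower than in the parental line in Ov4Cis, where 7.41% of all genes were, and 5 in Ov4Carbo7 (7.75%). In Ov4Carbo4 it was 4 (7.7%) and in Ov4Carbo 1 (6.93%). In Ov4Cis, Ov4Carbo and Ov4Carbo4, 1 marker each was called higher, and 0 in Ov4Carbo7. Sample titles are numbered in 2 runs, called title series here and not named a batch in the labels: 7 samples in the first (Ov4Carbo replicate 1, all Ov4Carbo4 and all Ov4Carbo7) and 8 in the second (parental, Ov4Cis, Ov4Carbo replicates 2 and 3). Ov4Carbo4, Ov4Carbo7 and Ov4Carbo replicate 1 can be compared within the first series, and the parental line, Ov4Cis and Ov4Carbo replicates 2 and 3 within the second. In a comparison across the series, line and title series cannot be told apart except through Ov4Carbo.

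Replicate 1 of Ov4Carbo stood apart from its 2 companions in these genes and is therefore shown apart. It exceeded the mean of replicates 2 and 3 by 1.29 (ISG15) to 3.33 (MX1) log2 units, with a median of 2.33 over the 10 genes against -0.02 over all genes. A gap of at least 1 log2 unit in that direction was present in 10 of 10 of the antiviral genes and in 4.09% of all genes. Replicate 1 is also the only Ov4Carbo sample in the first title series, and the part of the series in this gap was not tested. The counts and the order of lines that involve Ov4Carbo are given with and without this sample.

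**Figure D2:**
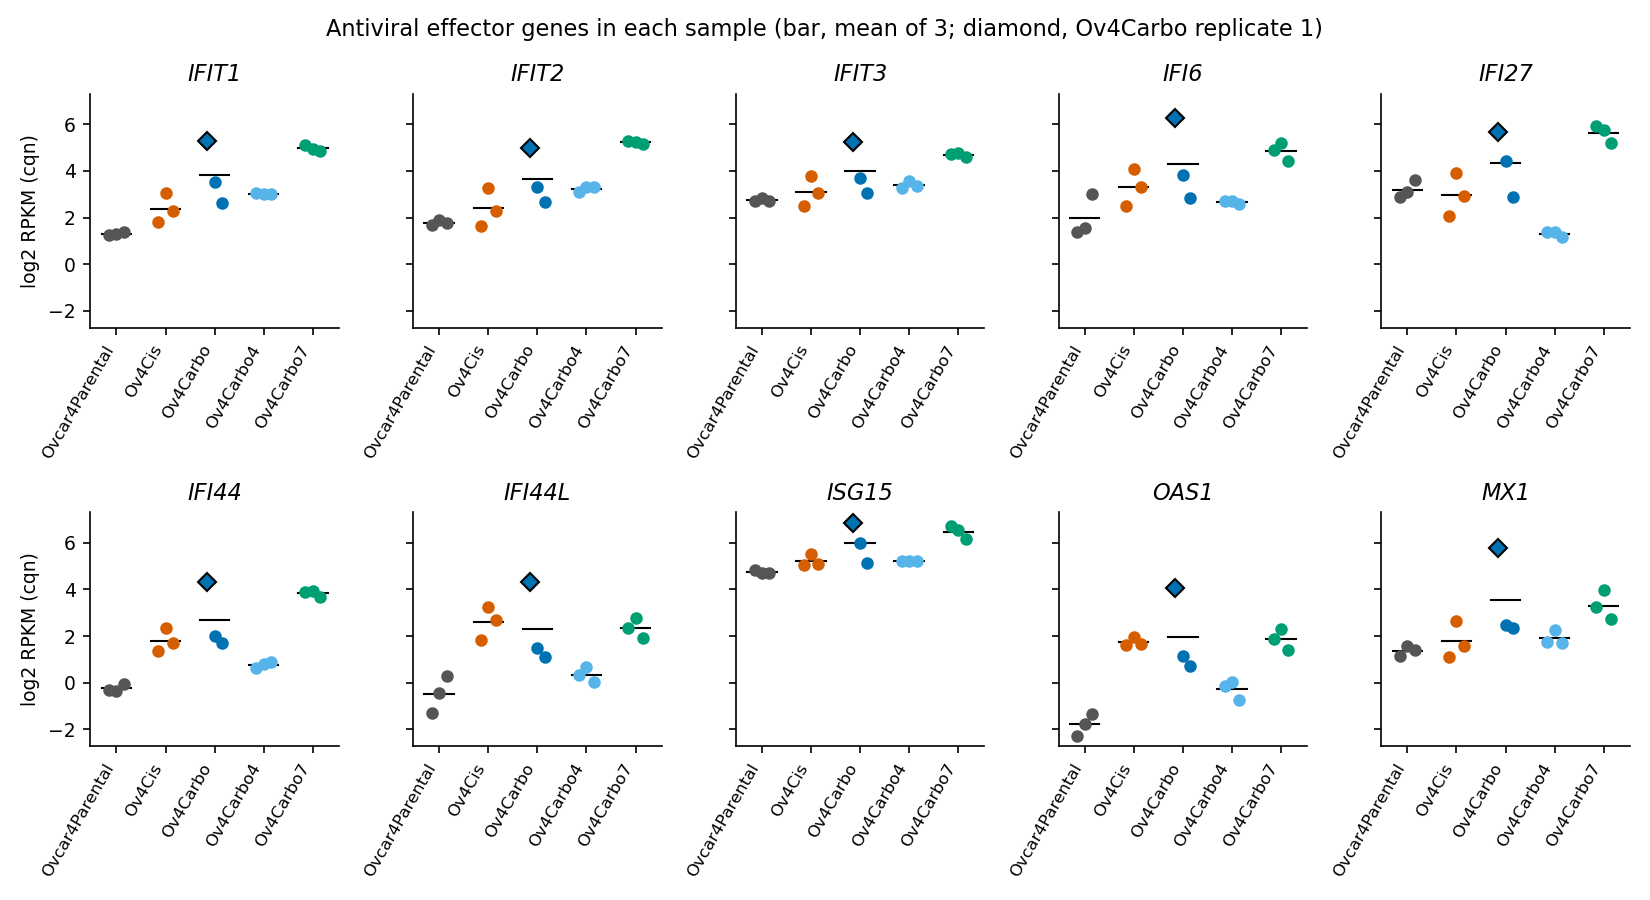
Level of each of the 10 genes (log2 RPKM, vertical axis) in each sample, by line; points are samples, bars are line means, and Ov4Carbo replicate 1 is drawn apart. The parental line is lowest in mean for 9 genes, and Ov4Carbo replicate 1 is the highest of the 15 samples for 8 genes.

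All 10 genes differed among the 5 lines (moderated F-test in limma, Benjamini-Hochberg adjusted over all genes, adjusted p from 1.34e-04 for IFI44 to 0.0492 for MX1). That test passed in 76.9% of all genes, so it says little about these 10. The parental mean was the lowest of the 5 for 9 genes, with IFI27 the exception, lowest in Ov4Carbo4. Ov4Carbo7 had the highest mean for 7 genes, Ov4Carbo for OAS1 and MX1, and Ov4Cis for IFI44L. Without Ov4Carbo replicate 1, Ov4Carbo7 had the highest mean for 9 genes, since the Ov4Carbo means of OAS1 (0.93) and MX1 (2.43) then lay below those of Ov4Carbo7 (1.85 and 3.31). Neighbouring lines in this order were mostly not separated: of 40 neighbouring pairs, 4 were called. These were IFIT2 in Ov4Carbo7 over Ov4Carbo, IFI27 in Ov4Cis over Ov4Carbo4, IFI44L in Ov4Carbo over Ov4Carbo4 and OAS1 in Ov4Cis over Ov4Carbo4. Without Ov4Carbo replicate 1, 12 of the 40 neighbouring pairs were called. A gene was called here and below at an adjusted p under 0.05 in limma, adjusted over 16604 genes within a comparison, with a log2 difference of at least 1. Between genes, ISG15 had the highest level of the 10 in all 15 samples (4.71 to 6.86 log2 RPKM), and OAS1 ranked 8 to 10.

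The 2 single-cell clones of Ov4Carbo, both within 1 title series, differed in nearly all of these genes. In Ov4Carbo7 all 3 values lay above all 3 of Ov4Carbo4 for 10 of 10 genes, and 9 of 10 were called higher, where 11.1% of all genes were called higher and 9.86% lower. The median difference over the 10 genes was 1.99 log2 units, against -0.05 over all genes. RNA from whole cultures was measured, so a higher level in every cell and a larger share of expressing cells cannot be told apart. The 10 genes were read from the same samples, and their counts are not independent of each other.

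The IFIT proteins bind viral RNA ends and hinder its translation. IFIT1, which recognises caps lacking 2'-O-methylation, stood at 3.04, 3.02 and 3.03 log2 RPKM in Ov4Carbo4 and at 5.11, 4.96 and 4.87 in Ov4Carbo7. Parental cells held 1.27, 1.29 and 1.36, so the clones were above the parental values without overlap and Ov4Carbo7 was above Ov4Carbo4. The clone difference was 1.95 ± 0.49 (SE; limma adjusted p = 0.00550, n = 3 per line), or 3.86-fold. IFIT2 values were 3.09, 3.31 and 3.33 in Ov4Carbo4 and 5.28, 5.24 and 5.15 in Ov4Carbo7, again without overlap (difference 1.98 ± 0.49 SE, limma adjusted p = 0.00456). IFIT3, which stabilises IFIT1, started from a higher parental level of 2.71 to 2.83 and differed less, by 1.30 between the clones (limma adjusted p = 0.0245).

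IFI27 and IFI6 encode small related membrane proteins, IFI6 acting at the endoplasmic reticulum against flaviviruses. IFI27 showed the widest gap of the 10 between the clones. Its values in Ov4Carbo4 were 1.38, 1.40 and 1.16 log2 RPKM, and in Ov4Carbo7 they were 5.93, 5.76 and 5.20. The parental values of 2.88, 3.11 and 3.60 lay between the clones without overlapping either. The clone difference of 4.32 ± 0.58 (SE; limma adjusted p = 6.1e-05, n = 3) equals 20.0-fold. Unlike the other 9 genes, IFI27 had a lower mean in Ov4Carbo4 than in the parental line. IFI6 was at 2.73, 2.72 and 2.60 in Ov4Carbo4 and at 4.90, 5.19 and 4.44 in Ov4Carbo7. The IFI6 clone difference was 2.16 ± 0.71 (SE; limma adjusted p = 0.0233).

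IFI44 and IFI44L are paralogues side by side on chromosome 1 whose molecular action is less well defined. IFI44 was at -0.30, -0.36 and -0.06 log2 RPKM in the parental line, 0.64, 0.79 and 0.90 in Ov4Carbo4 and 3.90, 3.93 and 3.66 in Ov4Carbo7. The lines formed steps without overlap, and Ov4Carbo7 exceeded Ov4Carbo4 by 3.05 ± 0.51 (SE; limma adjusted p = 3.33e-04), or 8.30-fold. IFI44L was at 0.34, 0.68 and 0.02 in Ov4Carbo4 and 2.33, 2.79 and 1.92 in Ov4Carbo7, and it also passed (difference 2.00, limma adjusted p = 0.0317).

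ISG15 is a ubiquitin-like protein that is joined to other proteins during the response. It was at 5.23, 5.22 and 5.20 log2 RPKM in Ov4Carbo4 and at 6.72, 6.56 and 6.16 in Ov4Carbo7. The difference of 1.26 was the smallest of the 10, with the smallest standard error (0.32, limma adjusted p = 0.00539). OAS1 makes the oligoadenylates that switch on RNase L. Its values were -0.12, 0.04 and -0.76 in Ov4Carbo4 and 1.85, 2.32 and 1.38 in Ov4Carbo7, a difference of 2.13 ± 0.66 (SE; limma adjusted p = 0.0166). MX1, a GTPase that traps viral ribonucleoproteins, was at 1.73, 2.28 and 1.69 in Ov4Carbo4 and at 3.25, 3.97 and 2.71 in Ov4Carbo7. MX1 was the gene of the 10 not called, at 1.41 ± 0.73 (SE; limma adjusted p = 0.127), although its groups did not overlap. The spread used for MX1 is shared by the 5 lines and includes the Ov4Carbo SD of 1.93, the widest of any of the 10 genes in any line. With Ov4Carbo replicate 1 left out of that spread, MX1 passed between the clones with the same difference (SE 0.38, limma adjusted p = 0.00808), and 10 of 10 genes were called higher, where 11.3% of all genes were.

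Leaving out 1 of the 6 clone samples with all other samples kept, IFIT1, IFIT2, IFI27, IFI44 and ISG15 were called each time, and IFIT3, IFI6, IFI44L and OAS1 missed the threshold in at least 1 case. The count of 9 fell to 5 without Ov4Carbo4 replicate 3 and to 5 without Ov4Carbo7 replicate 2, and the median difference stayed between 1.92 and 2.11 when any 1 of the 6 samples was left out. Replication histones, whose RNA mostly lacks a polyA tail, moved in the opposite direction between the clones. Of the 7 measured, 5 were called lower in Ov4Carbo7 (median -1.26), where 9.86% of all genes were. Against the parental line 4 of the 7 were called higher in Ov4Carbo4 (median 1.12), where 7.43% of all genes were. In Ov4Carbo 2 were called higher (median 0.45), where 5.76% of all genes were, and in Ov4Carbo7 and Ov4Cis 0. The part of the histones in the results was not tested.

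**Figure D3:**
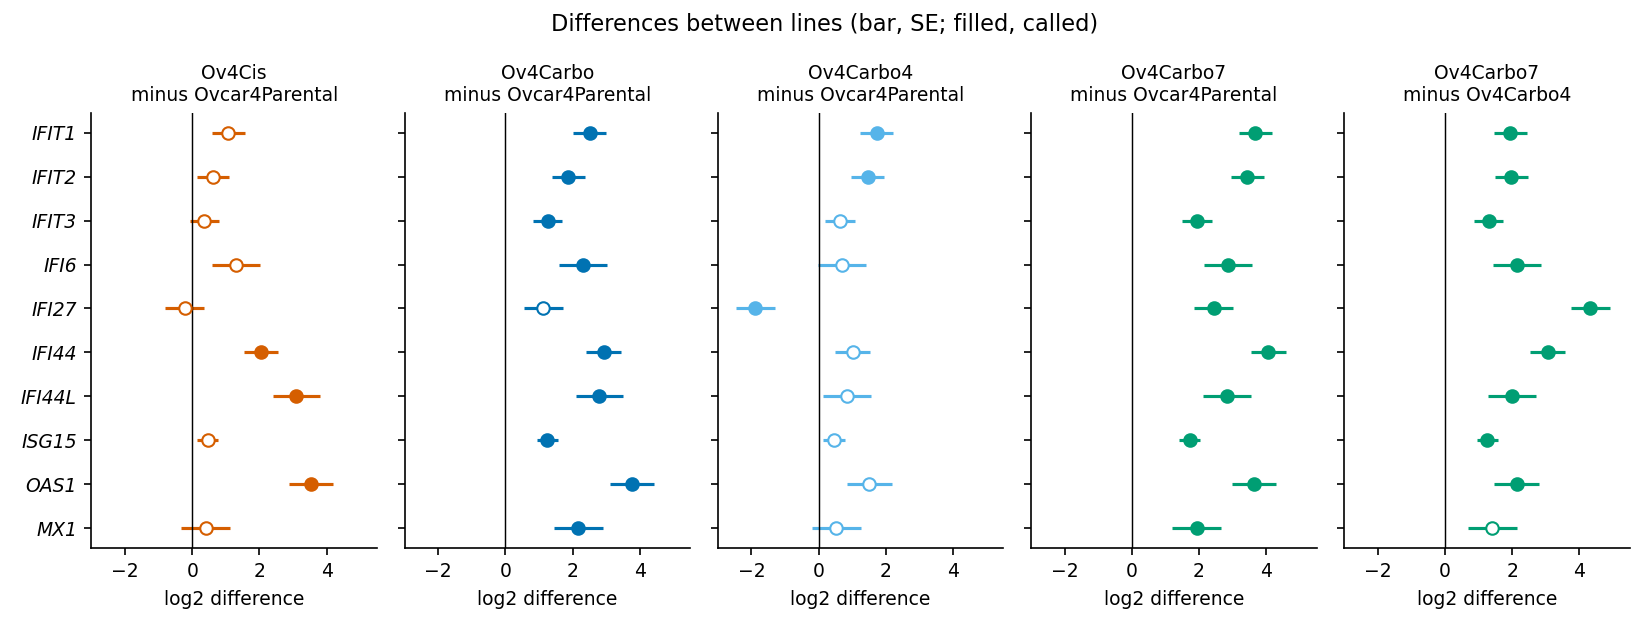
Log2 difference of each gene (rows) between 2 lines (horizontal axis), with 1 panel per comparison; points are limma estimates over 3 replicates per line, bars are standard errors and filled points were called. All 10 points are filled for Ov4Carbo7 against the parental line, and all but MX1 for Ov4Carbo7 against Ov4Carbo4.

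Against the parental line, Ov4Carbo7 held all 10 genes higher and without overlap, and 10 of 10 were called higher, where 9.26% of all genes were called higher and 7.75% lower. The largest differences were those of IFI44 (4.07, 16.8-fold), IFIT1 (3.67, 12.7-fold), OAS1 (3.65) and IFIT2 (3.44), and the median over the 10 genes was 2.85. MX1 passed narrowly (1.93, limma adjusted p = 0.0497) and did not pass on a log2(RPKM + 1) scale (limma adjusted p = 0.0521) or when any 1 sample of the 2 lines was left out (limma adjusted p from 0.0556 to 0.152). OAS1 and IFI44 lay below 1 RPKM in all 3 parental samples and IFI44L in 2, and on the log2(RPKM + 1) scale their differences were 1.84, 3.04 and 1.80. The lines belong to different title series: with a term for the series, which rests on Ov4Carbo replicate 1 against replicates 2 and 3 alone, 2 genes were called higher (IFI44 at 1.59 and IFIT1 at 1.48, with 9.24% of all genes called higher), and the values of IFI6, IFI44L and MX1 turned negative.

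The other clone differed from the parental line in 3 genes. In Ov4Carbo4, 2 of 10 genes were called higher, IFIT1 (1.72, limma adjusted p = 0.0149) and IFIT2 (1.46, limma adjusted p = 0.0308), where 7.43% of all genes were called higher. IFI27 was called lower (-1.89, limma adjusted p = 0.0216), where 7.7% of all genes were called lower. The other 7 genes had positive differences of 0.46 to 1.51 that did not pass. With Ov4Carbo replicate 1 left out of the shared spread, OAS1 (1.51) and IFI44 (1.02) were called too, making 4 higher, where 7.71% of all genes were. The count of 3 fell to 1 without Ov4Carbo4 replicate 3 or without parental replicate 3, and IFIT2 missed the threshold when any 1 sample of the 2 lines was left out. This comparison also crosses the title series: with the term, 0 genes were called higher and 4 lower (IFI27, MX1, OAS1 and IFI44, with 8.44% of all genes called lower), and the median difference went from 0.77 to -1.55.

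Ov4Cis, in the same title series as the parental line, was higher in 3 of 10 genes, where 8.46% of all genes were called higher and 7.41% lower. OAS1 stood at 1.60, 1.95 and 1.66 log2 RPKM in Ov4Cis against -2.28, -1.75 and -1.35 in the parental line. The groups were far apart, by 3.53 ± 0.66 (SE; limma adjusted p = 0.00106). IFI44L was at 1.85, 3.26 and 2.71 against -1.31, -0.46 and 0.29 (difference 3.10, limma adjusted p = 0.00417). IFI44 was at 1.36, 2.37 and 1.69, above all parental values, with a difference of 2.05 (limma adjusted p = 0.00745). On the log2(RPKM + 1) scale these 3 differences were 1.74, 2.03 and 1.29.

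The other 7 genes did not pass in Ov4Cis with the spread of all samples. With Ov4Carbo replicate 1 left out of that spread, IFIT1 and IFI6 were called too, making 5 of 10, where 8.83% of all genes were called higher. IFIT1 was at 1.79, 3.04 and 2.29, above the parental values, with a difference of 1.07 (limma adjusted p = 0.112, and 0.00902 with that sample left out). IFI6 was at 2.50, 4.07 and 3.32 and overlapped the parental values of 1.39, 1.55 and 3.02 (difference 1.31, limma adjusted p = 0.177, and 0.0428 with that sample left out). IFIT3 at 2.49, 3.77 and 3.07 and MX1 at 1.09, 2.65 and 1.59 overlapped the parental replicates, as did IFI27 at 2.08, 3.90 and 2.94. In Ov4Cis the replicates moved together: replicate 2 was the highest of the 3 and replicate 1 the lowest in 10 of 10 genes, where replicate 2 was highest in 33.9% and replicate 1 lowest in 40.2% of all genes. Of the 7 replication histones, 6 were highest in replicate 2 and 6 were lowest in replicate 1, and their part in this order was not tested. The median within-line SD of the 10 genes was 0.68 in Ov4Cis, against 0.14 for all genes. In Ov4Carbo4 it was 0.13, close to the 0.12 of all genes.

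Ov4Carbo, the uncloned carboplatin-selected line, was called higher than the parental line in 9 of 10 genes, where 5.76% of all genes were called higher and 6.93% lower. Without replicate 1 the count was 5 of 10, where 7.35% of all genes were called higher. Those 5 were OAS1 (2.72), IFI44 (2.10), IFIT1 (1.78), IFI44L (1.78) and IFIT2 (1.20). ISG15 missed the size limit without replicate 1 (0.82, limma adjusted p = 0.0172). The median over the 10 genes was 2.24 with replicate 1 and 1.27 without it.

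Sample by sample, IFIT1 was at 5.28, 3.53 and 2.64 log2 RPKM in Ov4Carbo. OAS1 was at 4.07, 1.12 and 0.73, and MX1 at 5.76, 2.49 and 2.37. Replicate 1 was the high sample in each case and replicate 3 the low one, in 10 of 10 genes, where replicate 1 was highest in 33.8% and replicate 3 lowest in 28.0% of all genes. For IFI6 the values were 6.25, 3.83 and 2.83, and replicate 3 fell below the highest parental value of 3.02. IFI27 at 5.68, 4.42 and 2.88 likewise overlapped the parental line and was the gene not called (1.13, limma adjusted p = 0.153). Replicates 2 and 3 both lay above all parental values in the other 8 genes.

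**Figure D4:**
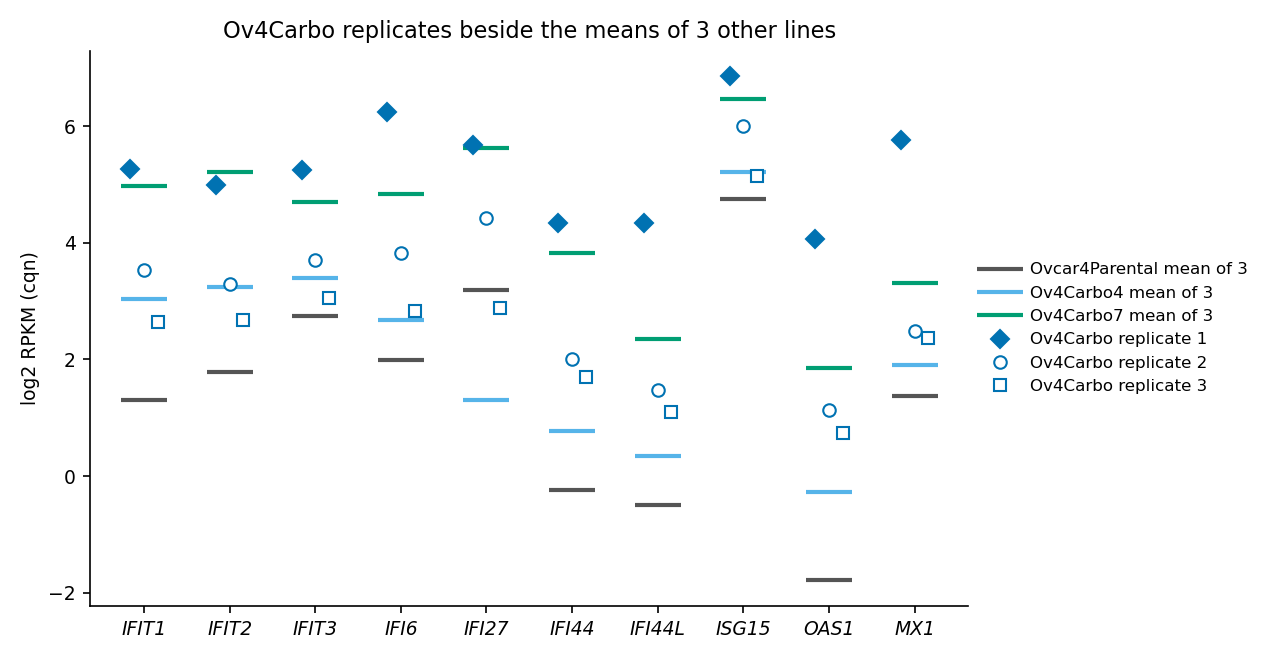
Level of each of the 10 genes (log2 RPKM, vertical axis) in the 3 Ov4Carbo replicates (symbols), beside the means of 3 replicates of the parental line, Ov4Carbo4 and Ov4Carbo7 (bars). Replicate 1 lies above replicates 2 and 3 for 10 of 10 genes, and replicates 2 and 3 lie below the Ov4Carbo7 mean for all 10.

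Set against the clones derived from it, Ov4Carbo was placed by its replicates. Replicate 1 lay above all Ov4Carbo7 values in 8 genes, not in IFIT2 and IFI27, and replicates 2 and 3 lay below all Ov4Carbo7 values in 10 of 10. Ov4Carbo7 was called higher than Ov4Carbo in 1 gene, IFIT2 (1.57, limma adjusted p = 0.0241), where 7.72% of all genes were called higher. Without replicate 1 it was called higher in 6 (IFIT1, IFIT2, IFIT3, IFI6, IFI27 and IFI44), where 9.03% of all genes were. Leaving out any 1 of the other 5 samples of these lines brought the count to 0. With the title series term the direction turned: 0 genes were called higher and 3 lower (OAS1, IFI44L and MX1), where 3.63% of all genes were called lower, and the median went from 0.61 to -0.53.

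Ov4Carbo4 was called lower than Ov4Carbo in 4 genes, IFI27 (-3.02), OAS1 (-2.26), IFI44L (-1.95) and IFI44 (-1.91), where 6.64% of all genes were called lower. Without replicate 1 of Ov4Carbo, 3 of these were called (IFI27 at -2.34, OAS1 at -1.21 and IFI44 at -1.08), where 7.72% of all genes were called lower. The count was 9 without Ov4Carbo replicate 3 and 2 without Ov4Carbo4 replicate 3. With the title series term it was 10 of 10 lower, where 6.37% of all genes were. Both comparisons of a clone with Ov4Carbo replicates 2 and 3 cross the title series. With the term, each clone is in effect compared with Ov4Carbo replicate 1 alone, so the counts with the term rest on that sample.

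Among the resistant lines, Ov4Cis was lower than Ov4Carbo7 in 6 genes (IFIT1, IFIT2, IFIT3, IFI27, IFI44 and ISG15, by -1.26 to -2.82), where 7.2% of all genes were called lower. OAS1 and IFI44L did not pass there, with differences of -0.11 and 0.26 and standard errors of 0.66 and 0.71. This comparison crosses the title series, and with the series term 2 genes were called higher (OAS1 and IFI44L, where 7.52% of all genes were) and 0 lower, the median going from -1.57 to 0.37. Ov4Cis was higher than Ov4Carbo4 in OAS1 (2.02), IFI44L (2.26) and IFI27 (1.66), where 9.12% of all genes were called higher. Leaving out any 1 of Ov4Carbo4 replicates 1 and 3 and Ov4Cis replicates 2 and 3 brought that count to 0, and with the series term it was 9, where 10.4% of all genes were called higher. Against Ov4Carbo, Ov4Cis was lower in 1 gene, IFIT1 (-1.44, limma adjusted p = 0.0395), where 5.9% of all genes were called lower. Without Ov4Carbo replicate 1 it was instead higher in 1 gene, IFI44L (1.32), where 9.02% of all genes were called higher. The count of lower genes was 6 without Ov4Carbo replicate 3, 3 without Ov4Cis replicate 2 and 0 without Ov4Cis replicate 1 or 3.

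Summed over the 10 genes, RPKM ranged from 54.4 to 64.3 in the parental samples and from 80.1 to 85.4 in Ov4Carbo4. The sum was 66.7 to 134 in Ov4Cis and 244 to 328 in Ov4Carbo7. In Ov4Carbo it ran from 83.0 to 464, in RPKM a wider range than that over all samples of the other 4 lines. In the mean log2 value of the 10 genes it was not wider. That mean ran from 2.51 to 5.28 in Ov4Carbo and from 1.21 to 4.55 over the other 4 lines.

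Other genes of the pathway were described by role, on the comparison of Ov4Carbo7 with Ov4Carbo4. No row was present among those analysed for the 12 interferon genes looked up. Of 11 receptor and signalling genes, 4 were called higher and 0 lower, where 11.1% and 9.86% of all genes were. The median of the 11 was 0.38. Among them, JAK1 was higher by 1.23, and the feedback inhibitors SOCS3 and SOCS1 by 1.70 and 1.46. STAT2 lay between 4.01 and 5.31 log2 RPKM over all samples, and IRF9 lay between -3.87 and -0.96, below 1 RPKM in all samples.

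Sensors of nucleic acid differed between the clones too. Of 12 sensors and activators, 5 were called higher and 0 lower, where 11.1% and 9.86% of all genes were. The median of the 12 was 0.80. RIGI and IFIH1, which detect viral RNA, were higher by 2.40 and 2.32, and CGAS and STING1, of the DNA-sensing pathway, by 1.72 and 1.54. RIGI went below the parental level in Ov4Carbo4, at 1.49, 1.57 and 1.47 against 2.87, 2.87 and 2.68, and lay above it in Ov4Carbo7, at 3.85, 4.11 and 3.77. Both comparisons with the parental line cross the title series. Within Ov4Carbo, RIGI was at 4.09 in replicate 1 and at 1.95 and 2.25 in replicates 2 and 3. The part of the series in the RIGI differences was not tested.

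The enzymes that attach or remove ISG15 numbered 6, and 3 were called higher in Ov4Carbo7 than in Ov4Carbo4, where 11.1% of all genes were. The 3 enzymes were UBA7, the activating enzyme (1.81), UBE2L6, the conjugating enzyme (1.45), and USP18, the ISG15 protease (1.09). Of 28 further antiviral effectors, 10 were called higher and 0 lower, where 11.1% and 9.86% of all genes were. The median of the 28 was 0.86. OAS2 (3.24), TRIM22 (2.94), XAF1 (2.36) and IFI16 (2.24) had the largest differences. Of 10 genes typical of interferon gamma that were looked up, 6 had a row, and CXCL9, CXCL10, CXCL11 and CIITA had none. Of the 6, 3 were called higher, where 11.1% of all genes were: GBP2 (3.10), GBP5 (2.75) and GBP4 (2.19). All 3 are guanylate-binding proteins, as are most of the 6.

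The same lists were read against the parental line, with the parental samples shared by the 4 comparisons. Of the 28 further effectors, 12 were called higher and 1 lower in Ov4Carbo7, where 9.26% and 7.75% of all genes were. In Ov4Carbo4 the counts were 3 and 2, shares near the 7.43% and 7.7% of all genes. They were 8 and 3 in Ov4Cis, where 8.46% and 7.41% of all genes were called. In Ov4Carbo 9 were higher and 0 lower, where 5.76% and 6.93% of all genes were. Without replicate 1 the counts were 5 and 2, where 1221 (7.35%) and 1306 of all 16604 genes were called. With the title series term the counts for the 28 were 3 higher and 4 lower in Ov4Carbo7 (median -0.53), where 1534 (9.24%) and 1228 of all 16604 genes were. In Ov4Carbo4 they were 1 higher and 16 lower with the term (median -1.43), where 1571 and 1401 (8.44%) of all 16604 genes were. Of the 6 genes typical of interferon gamma, 4 were called lower in Ov4Carbo4 without that term, where 7.7% of all genes were. Leukocyte markers were mostly not among the rows analysed (3 of 10 present). Between the clones 1 of these markers was called higher in Ov4Carbo7, CD14 (1.58), and 2 were called lower, NCAM1 (-1.31) among them, where 11.1% and 9.86% of all genes were. Their part in the result was not tested.

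**Figure D5:**
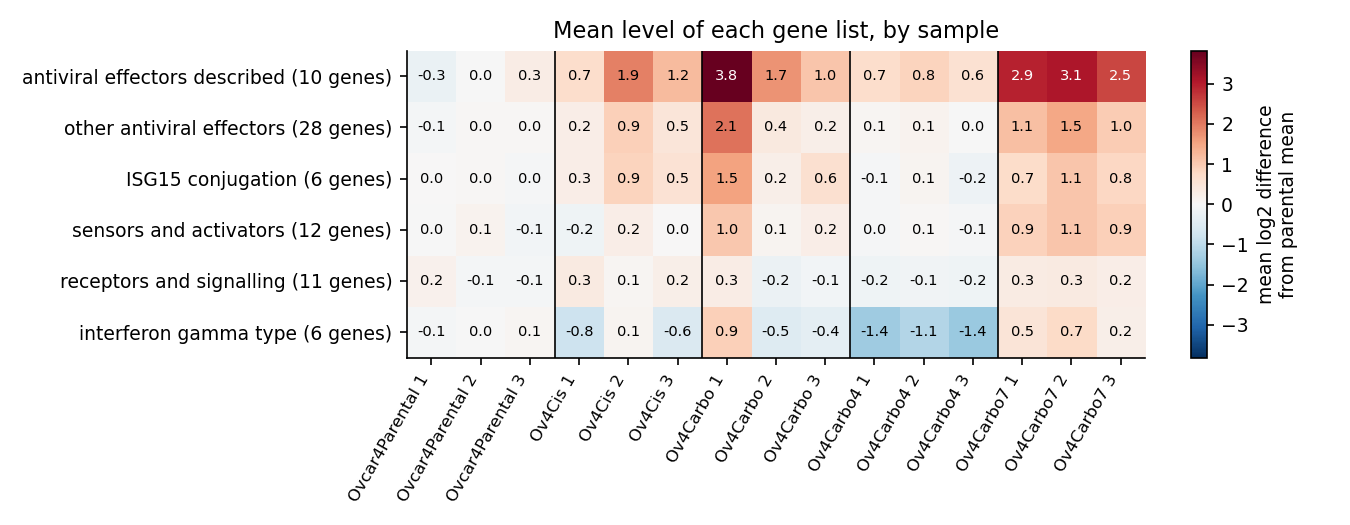
Mean level of each gene list relative to its parental mean (log2 units) in each sample, by line. The 10 antiviral genes are highest in Ov4Carbo replicate 1 (3.82) and in the 3 Ov4Carbo7 samples (2.55 to 3.08).

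The genes whose profile was most like that of the 10 were found by Pearson correlation over the 15 samples with their mean scaled profile, among 12028 other genes of mean log2 RPKM of at least 1. IRF7, a transcription factor that is itself raised by interferon, came first (r = 0.956, and 0.961 without Ov4Carbo replicate 1). It was at 0.73, 0.99 and 0.59 in the parental line and at 2.01, 2.33 and 1.78 in Ov4Carbo7. PARP9 (0.939), HERC5, the ISG15 ligase (0.931), DDX60 (0.927) and IFI35 (0.924) followed. GPNMB, PARP14, PML, IFIH1 and CLPTM1L completed the first 10, down to 0.903. Without Ov4Carbo replicate 1, IRF7 ranked 1 and PARP9 ranked 6. The rest of these genes then ranked from 12 (CLPTM1L, r = 0.915) to 80 (PML, r = 0.866). The median over all genes compared was -0.01. The 10 antiviral genes themselves correlated with their mean at 0.81 to 0.98, but each is part of that mean, which raises its own correlation. The 15 points share 5 lines and 2 title series, and the correlations are a description.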

How the data were processed

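The values are log2 RPKM that the authors normalised with conditional quantile normalization, as the deposited table's name states. The submitters' processing notes name BWA 0.7.15-r1140, HTSeq and hg19/GRCh37, with no role or order. The threshold behind the table, the strand setting and the handling of reads shared by paralogues are not given in the sources used here. Ensembl identifiers were matched to symbols for 16448 of 16604 genes.

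A linear model with 1 coefficient per line was fitted to all 15 samples and all genes in limma 3.58.1 (R 4.3.3; lmFit and eBayes, two-sided). Adjusted p-values are Benjamini-Hochberg over all genes within each of 10 comparisons. P-values measure only the spread between these samples, since the labels do not say whether replicates were separate cultures. Positions come from RefSeq promoters (GRCh38.p14), not from the authors' build.

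The text names all 10 genes, up to 4 called genes of each other list with the largest difference between the clones, genes of the receptor and ISG15 lists by role, and the 10 most alike genes. IRF7 values, RIGI values against the parental line and single samples were singled out after they were seen. Values of some list genes are not reported here. The members and lists were chosen with earlier results of these data known. The alternatives tried were leaving out each sample of the lines compared (and Ov4Carbo replicate 1 in the other comparisons, added after seeing the data), a title series term, a replicate block, a fit of the compared groups alone, log2(RPKM + 1), a variance trend, and a filter at mean log2 RPKM 1. Python 3.11.15 with pandas 2.3.3 was used for the rest.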

Additional observations from a re-analysis of the deposited data

How the results depend on the processing

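Counts here are of the 10 genes called in either direction. With a term for the title series, estimated from Ov4Carbo alone, they were 5 for Ov4Cis and 5 for Ov4Carbo against the parental line, 4 (lower) for Ov4Carbo4 and 2 for Ov4Carbo7. They were 1 (higher) for Ov4Cis against Ov4Carbo, 9 for Ov4Cis against Ov4Carbo4 and 2 (higher) for Ov4Cis against Ov4Carbo7. For a clone against Ov4Carbo, the term leaves replicate 1 as the only Ov4Carbo sample compared. The counts given above for these comparisons therefore rest on that sample and are not repeated here. The median for Ov4Carbo4 against Ov4Carbo was then -3.57. The median turned to -1.55 for Ov4Carbo4 against the parental line, to -0.53 for Ov4Carbo7 against Ov4Carbo and to 0.37 for Ov4Cis against Ov4Carbo7. For Ov4Carbo4 against the parental line the values became -0.47 (IFIT1), -0.56 (IFIT2), -1.23 (IFIT3), -2.23 (IFI6), -1.46 (IFI44), -2.21 (IFI44L), -0.83 (ISG15), -1.63 (OAS1) and -2.81 (MX1). For Ov4Carbo7 they became -0.071 (IFI6), -0.21 (IFI44L) and -1.40 (MX1). The cause was not tested. With only the groups compared, which leaves fewer samples for the spread, counts were 3 for Ov4Carbo and 5 for Ov4Carbo4 against the parental line, 1 for Ov4Carbo4, 0 for Ov4Carbo7 and 0 for Ov4Cis against Ov4Carbo. With a variance trend Ov4Cis against Ov4Carbo gave 2. With Ov4Carbo replicate 1 left out of the shared spread, an alternative chosen after seeing the data, Ov4Cis gave 5 and Ov4Carbo4 gave 5 against the parental line. For lines within 1 title series this gives the same result as the series term. The 5 for Ov4Cis is therefore a single result and not a second one. Likewise, the series-term results for Ov4Carbo against the parental line and for Ov4Cis against Ov4Carbo repeat those without Ov4Carbo replicate 1. Same-numbered replicates correlated in their deviations between -0.39 and 0.44 over 30 pairs, 11 of them above 0.1, and 4 of 15 samples correlated best with their own number, so the numbers do not pair the samples. A replicate block changed 1 count by over 1.5 times, that of Ov4Cis against Ov4Carbo, to 0. Leaving out 1 sample at a time gave 3 to 3 for Ov4Cis, 5 to 10 for Ov4Carbo, 1 to 2 for Ov4Carbo4 and 9 to 9 for Ov4Carbo7 against the parental line. It gave 2 to 9 for Ov4Carbo4 and 0 to 6 for Ov4Carbo7 against Ov4Carbo, 5 to 9 for Ov4Carbo7 against Ov4Carbo4, 0 to 6 for Ov4Cis against Ov4Carbo, 0 to 2 against Ov4Carbo4 and 5 to 6 against Ov4Carbo7, and 9 to 10 genes differed among the 5 lines. Ov4Carbo4 against Ov4Carbo gave 9 without Ov4Carbo replicate 3 and 2 without Ov4Carbo4 replicate 3, and Ov4Cis against Ov4Carbo gave 6 without Ov4Carbo replicate 3. Ov4Carbo4 against the parental line gave 1 without Ov4Carbo4 replicate 3 or parental replicate 3. In Ov4Cis against the parental line, IFI27 ranged from -0.68 to 0.22 and MX1 from -0.041 to 0.74. Sequencing depth is unknown, which limits what can be said of OAS1, IFI44 and IFI44L at low levels, and OAS1 dropped out under the filter at mean log2 RPKM 1.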
